A study of Mus musculus with 4 samples.

Results

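Cluster 9 is a small group of mature luminal (ML) cells of the mouse mammary gland that yielded few unique molecular identifiers (UMIs), the tags by which captured mRNA molecules are counted. Its members were the 898 of 32439 sequenced cells that carried the cluster number 9 in the deposited table. All of them bore the class label of ML cells, and they are described here against the 22902 cells of the other ML clusters, which are clusters 4 to 8, 10 and 11. The luminal cells came from the thoracic and abdominal glands of C57BL/6N mice aged 6 weeks. One group was Erbb3+/+;MMTV-Cre (WT) and the other was Erbb3V943R/V943R;MMTV-Cre (mutant), so that both groups carried the Cre transgene and differed in the *Erbb3* allele. The transgene drives Cre in mammary epithelium, and the V943R allele comes into use where Cre has acted. The glands of 3 mice were pooled in each group, and each pool of sorted luminal cells was sequenced as 2 droplet libraries, named A and B in an order that pairs no WT with any mutant library. Since each genotype was a single pool, biological replicates were lacking and no test was made, and all intervals are 95% intervals that cover counting error only.

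ML cells line the ducts and sense the hormones of the estrous cycle and of pregnancy. They carry receptors for estrogen (*Esr1*), progesterone (*Pgr*) and prolactin (*Prlr*) and pass these signals on to neighbouring cells through secreted factors such as amphiregulin (*Areg*). Some transcripts, *Malat1* foremost among them, stay in the nucleus after they are made, while most mRNAs are exported to the cytoplasm for translation.

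The libraries held 9627 and 9011 WT cells and 6849 and 6952 mutant cells, of which 265, 176, 251 and 206 belonged to cluster 9. The cells of cluster 9 gave 422678, 290310, 359611 and 303625 UMIs in the same order, against between 21572395 and 29339471 UMIs from the other ML cells of a library. Levels are given as CPM, the UMIs of a gene per 1000000 UMIs of all genes, after summing over the cells compared. Where 4 values are given by library, their order is WT A, WT B, mutant A and mutant B. Of the cell barcodes, 511 occurred in more than 1 library. Among the cluster 9 cells 31 had such a barcode (3.45%, against 3.17% of all cells), and 0 of these were shared with a cluster 9 cell of another library.

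Cluster 9 had fewer UMIs per cell than any other ML cluster. The median cluster 9 cell had 1515 (WT A), 1557.5 (WT B), 1291 (mutant A) and 1421.5 (mutant B) UMIs. The median cell of the other ML clusters had 3299, 3853, 3964.5 and 4380 UMIs in the same libraries, which puts cluster 9 at 0.459, 0.404, 0.326 and 0.325 of their level. Over both genotypes the medians of the other ML clusters ran from 2997 UMIs in cluster 11 to 5254.5 UMIs in cluster 5, against 1447.5 UMIs in cluster 9. The gap was therefore wider in the mutant libraries, where the other ML cells were deeper and the cluster 9 cells shallower. In these data a cell with less RNA and a cell from which less RNA was captured cannot be told apart.

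Genes per cell followed the UMIs. The median cluster 9 cell had 858, 871, 762 and 816 genes in the same order, against 1625 to 1997 genes in the other ML cells of a library. When every cell was thinned at random to 1000 UMIs, the medians were 617 genes in cluster 9 and 654 genes in the other ML cells. The thinning left out 41 and 45 cells that had fewer UMIs. At equal depth most of the difference in gene number was no longer seen.

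Cluster 9 did not hold all shallow ML cells. The limits of 1281 and 1623 UMIs used here split the cells of cluster 9 into parts of nearly equal size. Its own counts of 301 and 298 cells were thus fixed by that choice. Of the 521 ML cells with at most 1281 UMIs, 301 were in cluster 9 (57.8%, 53.4% to 62.1%). This share was 51.4% and 44.8% in WT libraries A and B, against 67.0% and 58.4% in mutant libraries A and B. The remaining shallow cells lay in other ML clusters, and 298 cells of cluster 9 had more than 1623 UMIs, with a median of 1881.

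**Figure D1:**
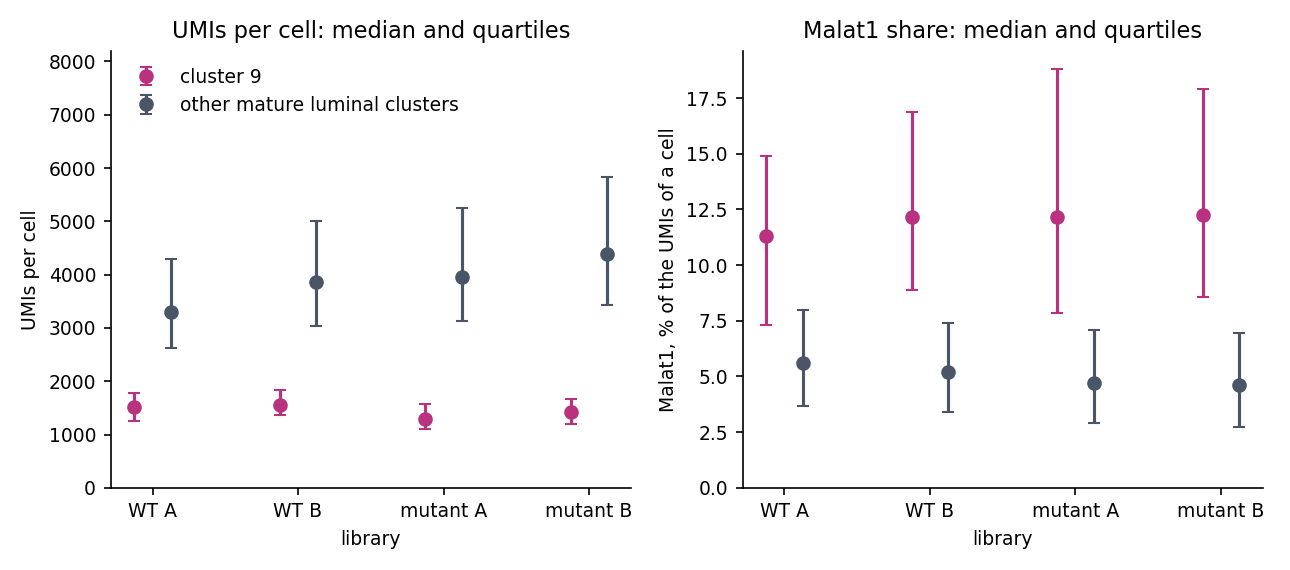
UMIs per cell (left) and the share of *Malat1* among the UMIs of a cell in percent (right) for cluster 9 and for the other ML clusters in each of the 4 libraries. Points are medians over cells and bars run from the lower to the upper quartile, and in every library the quartile ranges of UMIs do not overlap, with medians of 1291 to 1557.5 UMIs in cluster 9 and of 3299 to 4380 UMIs in the other ML cells.

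The 3 hormone receptor genes that mark ML cells were present in every library of cluster 9. The study defined its ML class by *Prlr* and characterized its progenitors by *Kit* in these same cells. The levels of these genes are thus no independent check of the class label. *Prlr* (ENSMUSG00000005268), the prolactin receptor, stood at 2747 and 2673 CPM in WT libraries A and B, against 2556 and 2770 CPM in mutant libraries A and B. In the other ML cells it stood at 2069, 2162, 1846 and 2041 CPM, below cluster 9 in every library. The log2 ratio of cluster 9 over the other ML cells was 0.36 (0.29 to 0.42) for WT cells and 0.45 (0.38 to 0.51) for mutant cells. By cluster, *Prlr* was highest in cluster 9 in both genotypes, but the WT values of cluster 9 (2717 CPM, 2597 to 2841) and cluster 8 (2713 CPM, 2674 to 2752) overlapped within counting error, as did those of clusters 9 and 10 in the mutant (2654 CPM, 2531 to 2781, and 2560 CPM, 2525 to 2595). The WT interval of cluster 9 also overlapped those of clusters 10 and 11. *Prlr* overlaps the annotated gene *Gm21973* on the same strand, so that reads of these genes may not be told apart.

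*Pgr*, the progesterone receptor, was found at 170 and 189 CPM in WT libraries A and B, against 156 and 214 CPM in mutant libraries A and B of cluster 9. The other ML cells had 136, 154, 145 and 169 CPM, and cluster 9 was above them in each library. The highest *Pgr* level was again that of cluster 9, with 178 CPM (148 to 212) for WT cells and 182 CPM (151 to 218) for mutant cells, but these intervals reached those of clusters 4, 7, 8 and 10 in both genotypes. *Esr1*, the estrogen receptor, rested on 52 WT and 35 mutant UMIs. It was measured at 52.0 and 103 CPM in WT libraries A and B, against 38.9 and 69.2 CPM in mutant libraries A and B, so that the libraries of each genotype differed more than the genotypes. *Esr1* was at 41.1, 49.4, 39.4 and 43.7 CPM in the other ML cells, which mutant library A of cluster 9 did not exceed. The place of cluster 9 among the clusters with the highest levels can thus not be read for any of these 3 receptor genes.

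**Figure D2:**
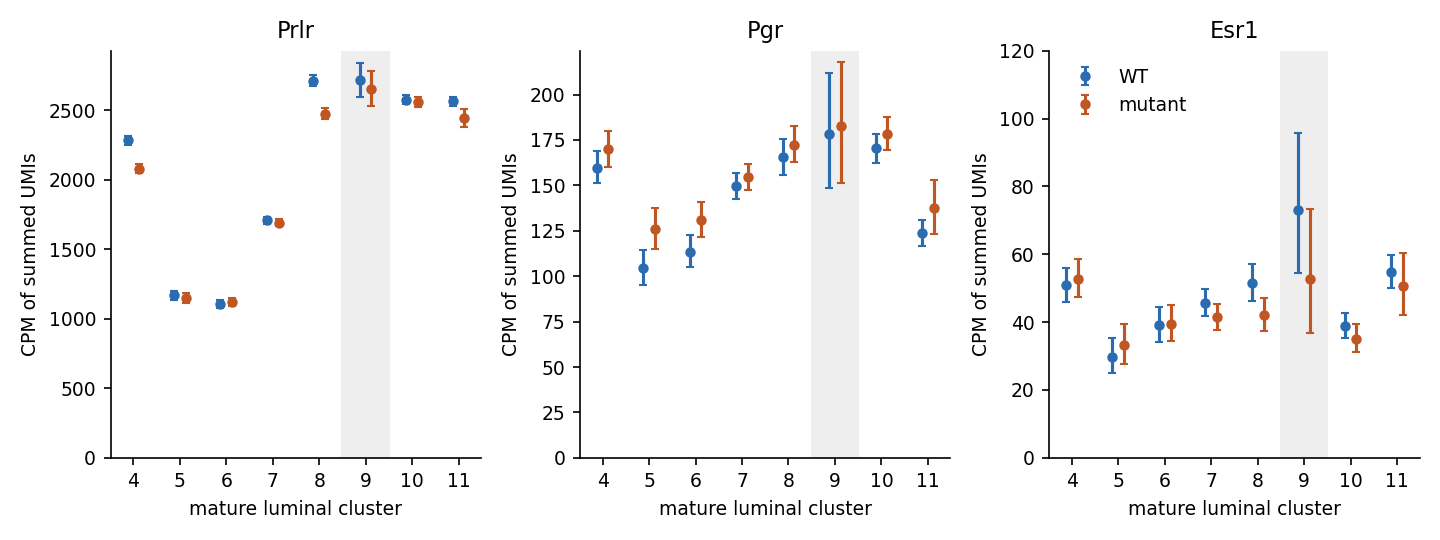
Levels of *Prlr*, *Pgr* and *Esr1* in CPM of summed UMIs in each ML cluster, for WT and mutant cells, with exact Poisson 95% intervals as bars and cluster 9 shaded. *Prlr* was at 2717 CPM (WT) and 2654 CPM (mutant) in cluster 9 and lowest in clusters 5 and 6, and the wide intervals of *Pgr* and *Esr1* in cluster 9 reached those of other clusters.

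The 10 genes of the ML marker list summed to 9511 and 10106 CPM in WT libraries A and B, and to 11371 and 11501 CPM in mutant libraries A and B of cluster 9, against 8801 to 9426 CPM in the other ML cells. *Areg*, which encodes amphiregulin, made up much of this sum, with 3816, 4571, 5998 and 5869 CPM by library. Of the 9 list genes tested by the rule given further on, 0 were called higher and 1 lower, beside 2.96% and 9.11% of all genes tested, and 0 were called on the other scales. *Cited1*, a transcriptional coactivator gene, was at 1048, 944, 951 and 893 CPM by library against 1448, 1505, 1068 and 1087 CPM, below the other ML cells in each library without being called, but its mutant log2 ratio was 0.01 on the scale of the median gene. The transcription factor gene *Tbx3* was lower in cluster 9, at 55.6 to 79.2 CPM over the libraries against 120 to 123 CPM. *Kit*, a receptor of luminal progenitors, was at 2.81 CPM in WT and 3.02 CPM in the mutant, as in the other ML clusters and far below the 243 and 290 CPM of the progenitor cluster 1. The full list of 12 luminal progenitor genes summed to 419, 413, 492 and 524 CPM by library in cluster 9. In the other ML cells it summed to 411, 397, 453 and 420 CPM, below cluster 9 in each library. The epithelial genes *Epcam* (1997 to 2077 CPM) and *Krt18* (7799 to 8432 CPM) were present in every library of cluster 9.

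Markers of cell types that are not luminal were near 0. The summed level of 10 basal genes was 40.2, 48.2, 75.1 and 52.7 CPM by library, against 24.6 to 31.1 CPM in the other ML cells of a library. The lists of 11 immune, 7 endothelial, 7 fibroblast, 6 adipocyte and 5 red blood cell genes each summed to at most 28.4 CPM in any library of cluster 9, and 6, 5, 5, 3 and 2 of their genes had no UMI in it. In the rare clusters 12 and 13, which are not ML, *Prlr* stood at 399 to 821 CPM by library. Of the cluster 9 cells, 1.34% were in the top 6% of all cells by doublet score.

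*Malat1* made up a larger part of the UMIs of cluster 9 than of any other ML cluster. *Malat1* (ENSMUSG00000092341, chromosome 19 from 5795690 to 5802672 in GRCm38), a long noncoding RNA of nuclear speckles, reached 115497 and 129141 CPM in WT libraries A and B, against 129698 and 131188 CPM in mutant libraries A and B. In the other ML cells it was at 56522, 52325, 47667 and 47324 CPM, and no library of cluster 9 overlapped these values. The log2 ratio of cluster 9 over the other ML cells was 1.16 (1.15 to 1.17) for WT cells and 1.46 (1.45 to 1.47) for mutant cells. The next cluster was cluster 11, with 67912 CPM in WT and 69710 CPM in the mutant.

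Per cell, *Malat1* had a median share of 11.3%, 12.2%, 12.2% and 12.3% of all UMIs in the 4 libraries of cluster 9. The other ML cells had medians of 5.58%, 5.21%, 4.73% and 4.61%. The cells of cluster 9 varied among themselves, with the middle 80% of cells between 4.66% and 22.2%. Of the other ML cells, 4.41% had at least the cluster 9 median of *Malat1*. The share was larger in shallower cells of both kinds. Its median was 14.03% in cluster 9 cells with at most 1281 UMIs and 10.4% in those with more than 1623 UMIs. The other ML cells within the same limits had 9.04% and 5.07%.

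Of the 4 nuclear RNA genes tested, *Malat1* and *Kcnq1ot1* were called higher by the rule given further on, and *Neat1* and *Xist* were not, beside 2.96% of all genes tested that were higher. With *Malat1* left out of the totals 3 of the 4 were called higher, *Neat1* included, beside 124 of 2237 genes tested. On the scale of the median gene all 4 were, beside 176 of 2153 genes. *Kcnq1ot1*, an imprinted noncoding RNA, was at 121, 89.6, 133 and 125 CPM by library against 58.6 to 64.4 CPM in the other ML cells. By cluster its interval in cluster 9 overlapped that of cluster 8 in WT (108 CPM, 85.2 to 135, and 93.8 CPM, 86.7 to 101) but not in the mutant (130 CPM, 104 to 160, and 92.0 CPM, 84.9 to 99.5). *Neat1*, which builds paraspeckles, was at 1630, 1674, 1760 and 1943 CPM by library against 1126 to 1226 CPM. Cluster 9 was second to cluster 4 for *Neat1* in both genotypes. *Xist*, the RNA that coats the inactive X chromosome, was at 4446 to 4786 CPM against 3145 to 3541 CPM. *Xist* and its antisense partner *Tsix* overlap, and a strand setting of the counting was not given in the sources used here, so their reads may not be told apart.

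RNA of the mitochondrial genome was also more abundant. The 13 protein genes of this genome summed to 5588, 5628, 5564 and 6554 CPM by library, against 3349 to 3760 CPM in the other ML cells. *mt-Cytb*, the cytochrome b gene of respiratory complex III, was at 2479, 2656, 2433 and 3122 CPM against 1519 to 1635 CPM. In the median cell of cluster 9, all 37 mitochondrial genes took 0.475% of the UMIs, against 0.228% in the other ML cells. This was not particular to cluster 9, since the median of cluster 8 was 0.952%.

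Cytosolic ribosomal protein genes made up 6.20% of the median cluster 9 cell and 7.56% of the median other ML cell. The medians were 6.66%, 6.18%, 5.92% and 5.75% by library, below the 7.38% to 7.79% of the other ML cells in each library. After *Malat1* had been left out of the totals, the median log2 ratio of the 66 ribosomal protein genes tested was 0.01 in WT and -0.08 in the mutant. No direction can thus be read for the median of these genes. The summed level of all 82 genes was 68610, 63422, 61967 and 59873 CPM by library, against 75518 to 81664 CPM in the other ML cells. This sum also stayed below theirs in each library with *Malat1* left out.

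All genes were then compared between cluster 9 and the other ML cells. A gene was called higher or lower when its CPM differed at least 1.5-fold in the WT sums and in the mutant sums, lay on the same side in all 4 libraries and rested on at least 50 UMIs, observed in cluster 9 or due to it at the level of the other cells, in each genotype. The clusters had been drawn from the same values, so the calls are a description and not a test. Of 2361 genes with enough UMIs, 70 were higher (2.96%) and 215 were lower (9.11%) in cluster 9. Levels in CPM are shares of a total, and with *Malat1* left out of the totals the log2 ratios of all genes moved up by 0.11 in WT and 0.13 in the mutant. The calls were then 124 higher and 97 lower of 2237 genes. When the scale was set so that the median gene did not differ, 176 genes were higher and 46 lower of 2153. The part of the calls that were higher was thus 24.6%, 56.1% or 79.3%, and which direction was the more frequent depended on the scale. The median log2 ratio over all genes tested was -0.17 in WT and -0.21 in the mutant on the first scale.

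The 10 genes that exceeded the other ML cells most in WT held *Malat1*, a pair of mitochondrial genes, large proteins of the matrix and the cytoskeleton, and gene models of unclear product. *Dmbt1* (ENSMUSG00000047517, chromosome 7 from 131032053 to 131121630), a secreted scavenger glycoprotein of mucosal defence, was at 478, 258, 754 and 461 CPM by library, against 134 to 203 CPM in the other ML cells. Its log2 ratio was 1.47 (1.29 to 1.64) in WT and 1.64 in the mutant. The libraries of cluster 9 differed among themselves, and 47, 15, 66 and 38 of their cells held a *Dmbt1* UMI. *Dmbt1* overlaps *Fgfr2* on the opposite strand.

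*Lamb2*, a laminin chain of basement membranes, was at 75.7, 99.9, 64.0 and 122 CPM by library against 34.5 to 39.5 CPM. Without mutant library B its mutant log2 ratio went from 1.29 to 0.69. *Dync1h1*, the heavy chain of cytoplasmic dynein, was nearly level over the libraries of cluster 9, at 170, 152, 170 and 158 CPM against 70.2 to 74.0 CPM. *Zcchc7*, which takes part in RNA decay in the nucleus, was at 78.1, 131, 136 and 115 CPM against 41.6 to 44.7 CPM. None of these genes had a library of cluster 9 within the range of the other ML cells. The rule that chose them asked for the same side in all 4 libraries, so this is no further result.

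The mitochondrial genes among the 10 were *mt-Nd6* and *mt-Co3*. *mt-Nd6*, a subunit of respiratory complex I that overlaps *mt-Nd5* on the opposite strand, was at 54.4, 103, 114 and 109 CPM against 29.3 to 37.6 CPM. *mt-Co3*, a subunit of complex IV that overlaps *mt-Atp6*, was at 94.6, 124, 97.3 and 115 CPM against 43.6 to 63.0 CPM. The remaining genes were *Gm23935* (log2 2.48 in WT and 2.66 in the mutant), annotated as a miRNA within the span of *Zc3h7a* on the opposite strand, *AC149090.1* (1.15 and 1.53) on an unplaced scaffold, and *Gm9513* (1.48 and 1.02). *Gm9513* depended on single libraries, since its log2 ratio was 2.33 without WT library A, 0.48 without WT library B and 0.36 without mutant library B.

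A stricter comparison asked for the same rule against each of the other 7 ML clusters in turn. Cluster 9 exceeded all of them in 22 genes and was below all of them in 24 genes. This was counted on the first scale only. *Bspry* and *Eef1g*, which are among the 24, lost their call against the pooled cells on the scale of the median gene. The 22 genes held *Malat1*, *Dmbt1*, *Lamb2* and *Dync1h1*, and also *Son*, *Clk1* and *Lama5*, which are named here after their values were seen. *Son*, which encodes a protein of nuclear speckles, was at 691, 778, 856 and 830 CPM against 356 to 408 CPM in the other ML cells. *Clk1*, a kinase of splicing factors, was at 85.2, 110, 120 and 125 CPM against 50.5 to 56.8 CPM. *Lama5*, a further laminin chain, was at 114, 141, 189 and 224 CPM against 62.3 to 85.4 CPM. In each of these genes every library of cluster 9 lay above every library of the other ML cells, which the rule used to choose them makes likely.

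The 24 genes below all 7 other ML clusters were of mixed kinds, among them the transcription factor gene *Max*, the DNA repair gene *Apex1* and the pseudogene *Rpl3-ps1*. The examples given were likewise chosen after their values were seen. *Slc25a5*, the exchanger of ADP and ATP across the inner mitochondrial membrane, was at 263, 265, 275 and 181 CPM against 561 to 608 CPM. *Cfl1*, cofilin, which severs actin filaments, was at 260, 193, 273 and 201 CPM against 471 to 527 CPM. *Rplp0*, a protein of the ribosomal stalk, was at 196, 203, 217 and 204 CPM against 352 to 463 CPM. *Cct4*, a subunit of a cytosolic chaperonin, was at 187, 134, 150 and 148 CPM against 280 to 309 CPM. The groups of libraries did not overlap in any of these genes, which the rule likewise makes likely.

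The 10 leading lower genes were each highest, among the other ML clusters, in cycling cluster 5 or 6, and *Ube2c*, *Birc5* and *Top2a* belong to the fixed list of cycling genes. *Ube2c*, which marks mitotic proteins for degradation, was at 16.6, 31.0, 33.4 and 16.5 CPM by library against 117 to 150 CPM. The log2 ratio was -2.44 (-3.24 to -1.74) for WT cells and -2.47 (-3.25 to -1.79) for mutant cells, while among the 8 ML clusters cluster 9 ranked 3 from the top in WT and 4 in the mutant. *Birc5*, *Ccnb2*, *Top2a*, *H2afx*, *Cks1b* and *Tubb5* had WT log2 ratios between -2.33 and -1.31. *Tubb5*, a tubulin gene of the cytoskeletal list, was at 1366 and 2051 CPM in WT clusters 5 and 6, against 235 to 357 CPM in the other ML clusters and 220 CPM in cluster 9. *Birc5*, *Ccnb2* and *Top2a* rested on 7 to 13 UMIs per genotype in cluster 9. *Birc5* went to -3.07 without WT library A and to -3.15 without mutant library A, *Ccnb2* to -1.74 without WT library A and to -2.93 without WT library B, and *Top2a* to -3.17 without mutant library A. *Ccnb2* did not meet the rule on either of the other scales, although its log2 ratios stayed past 1.5-fold, at -2.22 and -2.93 with *Malat1* left out and at -2.12 and -2.83 on the scale of the median gene. The 11 cycling genes of the fixed list summed to 117 to 189 CPM in the libraries of cluster 9 and to 542 to 639 CPM in the other ML cells. The latter include the cycling clusters 5 and 6, so these sums do not place cluster 9 among the single clusters. Of the 11 genes only *Ube2c*, *Birc5* and *Top2a* entered the comparison. They did so through their level in the other ML cells, so that their calls say nothing of the list. Without clusters 5 and 6, a setting chosen after the data were seen, 59 genes were higher and 137 lower.

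*Emd*, *Bspry* and *Fam96a* were also among the 10 and belong to none of the lists. *Fam96a*, which takes part in the assembly of iron and sulfur clusters, was at 28.4, 34.5, 30.6 and 32.9 CPM against 70.6 to 80.2 CPM. It too missed the rule on both other scales, with log2 ratios of -1.09 and -1.19 and of -0.99 and -1.09 that stayed past 1.5-fold. *Emd*, an inner nuclear membrane protein, was at 26.0, 55.1, 69.5 and 49.4 CPM against 89.1 to 93.6 CPM. The call of *Emd* was lost when mutant library B was left out (log2 -0.43 in the mutant) or *Malat1* was taken out of the totals (-0.48). That of *Bspry* was lost without mutant library A (-0.41) and on the scale of the median gene (-0.58).

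Gene groups of the fixed lists are given as counts of calls beside the 2.96% and 9.11% found over all genes. With *Malat1* left out of the totals, 124 and 97 of 2237 genes were called higher and lower. On the scale of the median gene these counts were 176 and 46 of 2153. Of the 9 mitochondrial genes tested, 5 were higher and 0 lower, with a median log2 ratio of 0.72 in WT and 0.62 in the mutant, and 7 were higher on each of the other scales. Of the 9 translation factors, 0 were higher and 3 lower (*Eef1g*, *Eif4a1* and *Eif3e*), and 2 and 1 stayed lower on the other scales. Of the 6 cytoskeletal genes, *Tubb5*, whose levels by cluster are given above, and *Cfl1* were lower and 0 higher, with the same counts on the other scales. Of 15 immediate early genes, which respond within minutes to stimuli, 1 was lower (*Socs3*, on the first scale only) and 0 were higher, with medians of -0.28 and -0.35. Of 4 fibrinogen and uroplakin genes, *Upk3a* (log2 -1.11 in WT and -1.01 in the mutant) and *Fgb* (-0.72 and -0.60) were lower, and 1 stayed lower on the other scales. By cluster *Upk3a* was highest in clusters 5, 6 and 7, at 7290, 6636 and 4726 CPM in WT. In WT the interval of cluster 9 (1403 CPM, 1317 to 1492) overlapped that of cluster 11 (1466 CPM, 1442 to 1491). In the mutant cluster 9 was above cluster 11 (1327 against 893 CPM). Cluster 10 was below cluster 9 in both genotypes (186 and 180 CPM). Of 10 genes that the study named for cluster 11 from these libraries, 3 were lower, *Upk3a*, *Fgb* and *S100a14* (-0.77 and -0.93), and 2 and 1 on the other scales. The study named *Upk3a* and *Fgb* as elevated in cluster 11 but *S100a14* as lower there, so the count joins both kinds. Of 5 glycolysis genes, *Ldha* was lower (-0.59 and -0.74), on the first scale only, and *Slc2a1* was called higher on the scale of the median gene only. Of 5 heat shock, 3 apoptosis and 8 endoplasmic reticulum stress genes, 0 were called in either direction on the first scale. Of 9 epithelial genes, *Cdh1*, the gene of E-cadherin, was called higher, at 104, 121, 142 and 142 CPM against 70.5 to 75.5 CPM.

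The genes that were higher had longer transcripts. The longest annotated transcript had a median of 5135 bases among the 70 higher genes (69 with a value), 2055 bases among the 215 lower genes and 2306 bases over all genes tested. Of the 80 protein coding genes with a transcript over 8000 bases, 12 were higher and 1 was lower. Of the 630 genes between 1000 and 2000 bases, 3 were higher and 89 were lower. The shortest genes did not follow this order, since of the 259 with at most 1000 bases 5 were higher and 7 lower, with medians of -0.05, -0.14, -0.13 and -0.15 by library. The median log2 ratio of the first group was 0.27 and 0.34 in WT libraries A and B, against 0.23 and 0.40 in mutant libraries A and B, and that of the 630 genes was between -0.38 and -0.26. Across 2204 protein coding genes, which are not independent replicates and share their libraries and depths, Spearman's rho between transcript length and log2 ratio was between 0.19 and 0.23 in the 4 libraries.

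**Figure D3:**
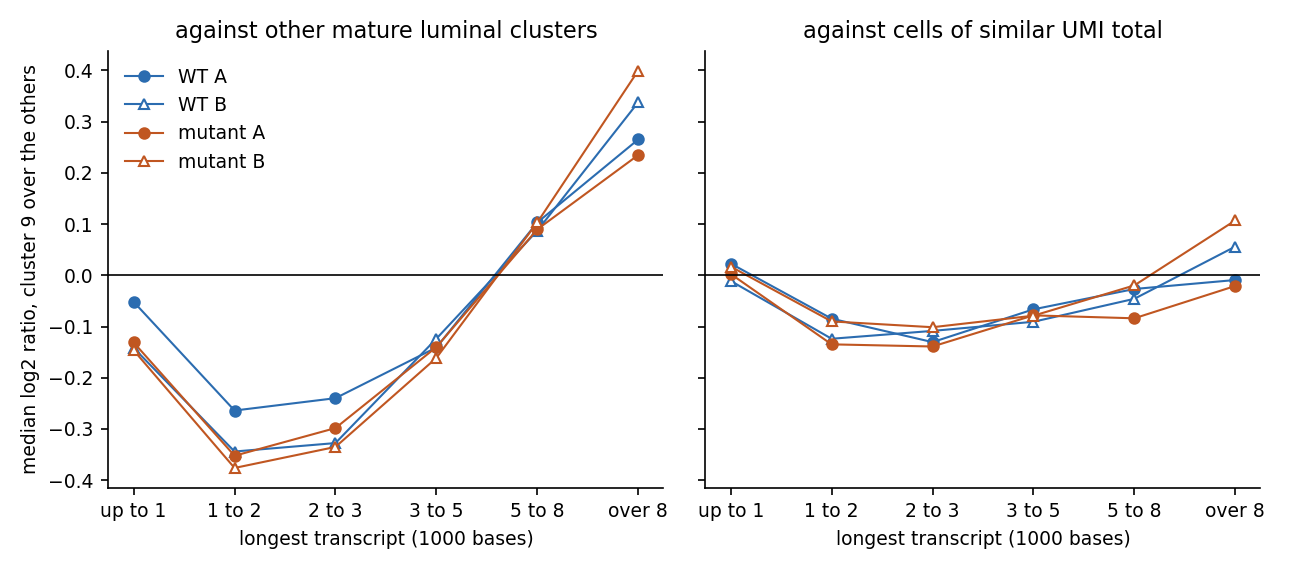
Median log2 ratio of cluster 9 over the other ML clusters (left) and over other ML cells of similar UMI total (right), for protein coding genes grouped by their longest annotated transcript in units of 1000 bases, with 1 line per library. On the left the medians are between -0.15 and -0.05 up to 1000 bases and pass from between -0.38 and -0.26 at 1000 to 2000 bases to between 0.23 and 0.40 above 8000 bases, and on the right they stay between -0.14 and 0.11.

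Because cluster 9 differed in depth, each of its cells was also set beside the ML cell of another cluster in the same library with the nearest UMI total. These 898 cells had a median of 1554 UMIs against 1447.5 UMIs, and the match was close in the WT libraries (1515 against 1516 and 1557.5 against 1558 UMIs) but not in mutant library A (1291 against 1637 UMIs). Of the matched cells, 42.3% came from cluster 4, 17.5% from cluster 11 and 11.7% from cluster 8. Their median share of *Malat1* was 7.85%, between that of all other ML cells and that of cluster 9. Of the matched cells, 22.3% had at least the cluster 9 median.

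Against the matched cells most of the genes called before kept their side, with smaller differences. The counts set against the matched cells were the same by which these genes had been called. The matched cells were also part of the other ML cells. Keeping a side was thus likely, and it is no independent result. How many of all genes tested lay on each side in both genotypes is not given. Of the 70 higher genes, 55 were above the matched cells in both genotypes and 5 were past 1.5-fold in both. Of the 215 lower genes, 192 were below the matched cells in both genotypes and 18 were past 1.5-fold. The rule itself called 7 genes higher and 53 lower in this comparison, of which 5 and 12 were among the genes called before, with a median log2 ratio of -0.06 in WT and -0.08 in the mutant over the genes tested before. *Actb*, not called before, had a larger difference here, with log2 ratios of -1.40 in WT and -1.72 in the mutant after -0.49 and -0.81. It was highest in cluster 4, which gave 42.3% of the matched cells, so this comparison differs in cluster make-up as well as depth. *Malat1* stood at a log2 ratio of 0.55 in WT and 0.57 in the mutant, *Dmbt1* at 0.92 and 0.80 and *Zcchc7* at 0.66 and 0.63. *Prlr* was at 0.08 and 0.06, *Pgr* at 0.39 and -0.09 and *Esr1* at 0.06 and 0.34, while *Areg* was at 0.84 and 0.38. The protein genes of the mitochondrial genome had a median of 0.41 in WT and -0.23 in the mutant, so that the sums of the genotypes lay on either side of 0. Per cell, the median share of all mitochondrial genes was above that of the matched cells in each library, at 0.450% against 0.267%, 0.471% against 0.317%, 0.444% against 0.354% and 0.552% against 0.492%. The mutant cells were less well matched, with medians of 1355 and 1575 UMIs. Spearman's rho with transcript length was between -0.01 and 0.03 in the 4 libraries.

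**Figure D4:**
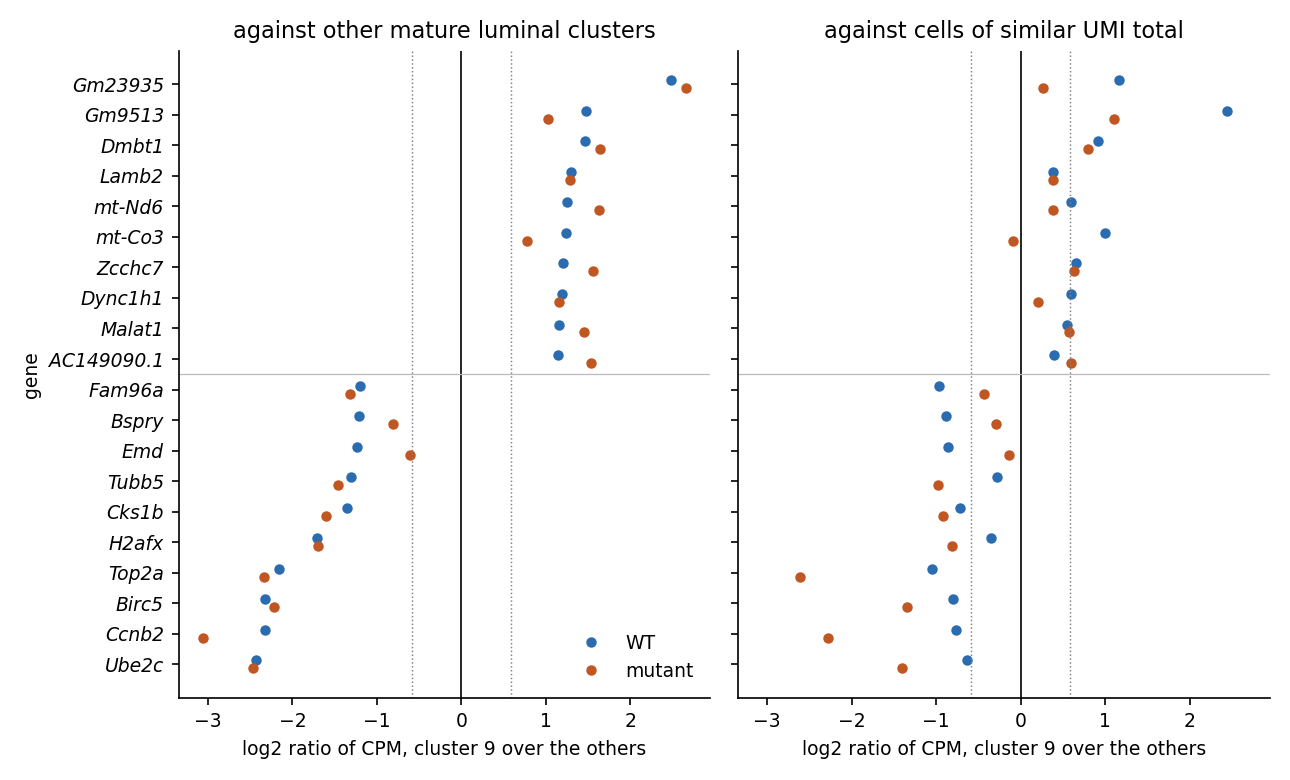
Log2 ratio of CPM in cluster 9 over the other ML clusters (left) and over other ML cells of similar UMI total (right) for the 10 genes that were highest and the 10 that were lowest in cluster 9 by the WT ratio, with WT and mutant as separate points and dotted lines at 1.5-fold. On the right *Dmbt1*, *Zcchc7* and *Gm9513* stay past 1.5-fold in both genotypes among the higher genes, and *mt-Co3* lies on either side of 0.

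The profile of cluster 9 was most like that of cluster 8. Across 4028 genes with at least 50 UMIs in each of clusters 1 to 11, Spearman's rho of the log2 CPM with cluster 9 was 0.920 for cluster 8, 0.913 for cluster 4, 0.903 for cluster 10, 0.901 for cluster 11 and 0.896 for cluster 7. Cluster 3, which is labelled luminal intermediate and not ML, had 0.890, above the 0.821 and 0.835 of the cycling ML clusters 5 and 6, and the progenitor clusters 1 and 2 had 0.729 and 0.714. These are correlations across genes of shared libraries, given as a description, and the first 5 values lie close together. Cluster 8 was also the closest when any 1 library was left out.

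Single cells of cluster 9 were spread over several ML profiles. For each cell, the other cluster of the same genotype was sought whose summed profile gave the highest likelihood of the UMIs of the cell. Of the WT cells of cluster 9, 37.6% (33.1% to 42.3%) were most like cluster 11, 26.5% (22.5% to 30.9%) most like cluster 10 and 20.4% (16.7% to 24.5%) most like cluster 8. Of the mutant cells, 34.4% (30.0% to 38.9%) were most like cluster 11, 34.1% (29.8% to 38.7%) cluster 10 and 15.5% (12.3% to 19.2%) cluster 8. Cluster 11 was the most like cluster for 34.3% and 42.6% of WT cells and for 31.1% and 38.3% of mutant cells, and cluster 10 for 27.9%, 24.4%, 39.4% and 27.7%. Of the 898 cells, 1 was most like a cluster that is not ML, against 2 with profiles of both genotypes and 7 with these profiles but without *Malat1*, *Neat1*, *Xist* and the mitochondrial genome.

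How well such a choice works was read from the matched cells, with profiles of both genotypes. Of the matched cells of cluster 11, 94.3% were given back to cluster 11, against 84.3% for cluster 10, 78.7% for cluster 4, 44.8% for cluster 8 and 39.1% for cluster 7. These cells were themselves part of the profiles, so these shares are upper estimates. Shares of clusters 7 and 8 are therefore uncertain. Of all matched cells, 28.2% were given to cluster 11, where 17.5% belonged. With these pooled profiles 37.7% and 48.9% of WT cells and 21.5% and 28.2% of mutant cells of cluster 9 were most like cluster 11, so that the difference between genotypes was much larger than with profiles of the same genotype. Without *Malat1*, *Neat1*, *Xist* and the mitochondrial genome, a setting added after the data were seen, the shares over all cells were 25.1% for cluster 11, 26.7% for cluster 10 and 26.3% for cluster 8. In this setting 32.4% of the matched cells of cluster 8 were given back to it, against 84.3% for cluster 10 and 94.3% for cluster 11.

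**Figure D5:**
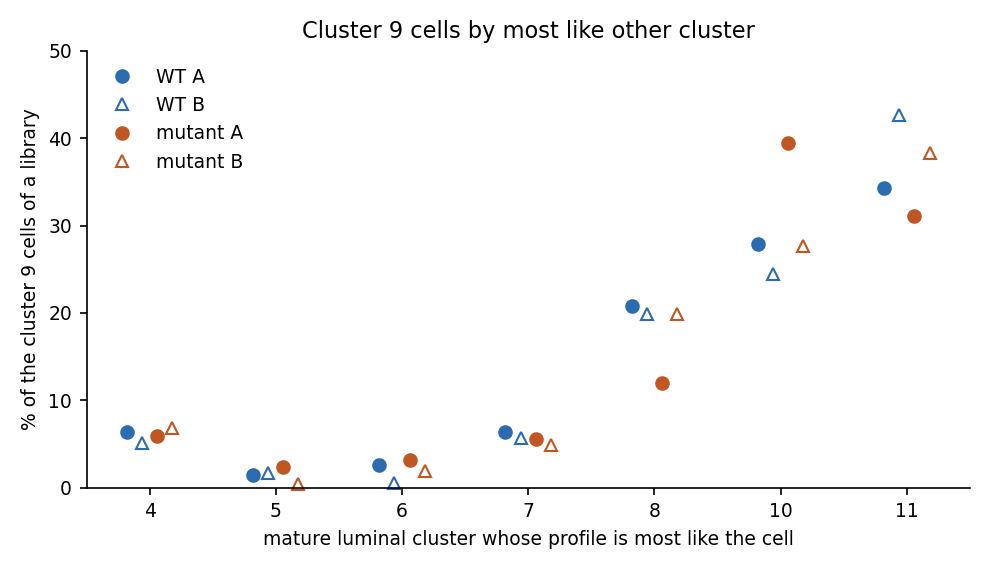
Share of the cluster 9 cells of each library, in percent, by the other ML cluster of the same genotype whose profile was most like the cell. Clusters 8, 10 and 11 take most cells in all 4 libraries, with 31.1% to 42.6% for cluster 11.

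The subsets of cluster 9 cells, here those made with profiles of both genotypes, carried genes of the clusters they resembled, which the choice itself had used. *Upk3a*, a uroplakin of the umbrella cell surface, was at 1914 CPM in the cells most like cluster 8, 216 CPM in those most like cluster 10 and 811 CPM in those most like cluster 11, beside 2038, 183 and 1349 CPM in these clusters themselves. *Areg* was at 5413, 7658 and 2173 CPM. *Malat1* was high in these 3 subsets, at 116134, 138604 and 144381 CPM against 56253, 64044 and 68278 CPM in the clusters. The cells most like clusters 5, 6 and 7 had median *Malat1* shares of 2.99%, 1.77% and 5.80%, and of 4.29%, 1.9997% and 8.13% when *Malat1*, *Neat1*, *Xist* and the mitochondrial genome were left out of the choice, beside 2.59%, 1.89% and 4.18% in these clusters. *Malat1* was among the genes that made the choice with all genes, so its levels in those subsets are no independent result.

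Cluster 9 made up 3.603% (3.19% to 4.05%) of the ML cells of WT library A, 2.58% (2.21% to 2.98%) of WT library B, 5.25% (4.64% to 5.92%) of mutant library A and 4.26% (3.71% to 4.87%) of mutant library B. Both mutant shares were above both WT shares, with a ratio of mutant over WT of 1.53 (1.35 to 1.74), but the intervals of WT library A and mutant library B overlapped. Among the cells outside cluster 11, which itself took a smaller share in the mutant, the order did not hold, with 3.24% in WT library A above 3.12% in mutant library B and a ratio of 1.24 (1.09 to 1.42). Among all cells the ratio was 1.40, and it was 1.20 without WT library B and 1.70 without WT library A. Of all ML cells, those with at most 1281 UMIs made up 1.96% (WT A), 0.981% (WT B), 3.87% (mutant A) and 2.59% (mutant B), cluster 9 included. With at most 1623 UMIs these shares were 5.19%, 3.70%, 6.65% and 5.81%. The part of depth in the difference in cluster size was not tested.

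*Erbb3* (ENSMUSG00000018166, chromosome 10 from 128567523 to 128589652), the gene whose allele differed, was the first to be compared between genotypes within cluster 9. It was at 97.0 and 72.3 CPM in WT libraries A and B, against 33.4 and 32.9 CPM in mutant libraries A and B, from 41, 21, 12 and 10 UMIs. The WT and mutant libraries did not overlap, with a log2 ratio of mutant over WT of -1.39 (-2.16 to -0.67). In the other ML cells the same ratio was -1.11 (-1.20 to -1.01), within the interval of cluster 9. The study reported a smaller decrease of *Erbb3* mRNA for the mutant sample. By its design the conditional allele ends, until Cre acts, in the untranslated tail of the human growth hormone gene. Whether transcripts of such an allele were counted as *Erbb3* was not tested. *Erbb2*, the partner of *Erbb3*, was at 68.7 CPM in WT and 61.8 CPM in the mutant and did not reach the UMIs asked for. *Egfr* and *Erbb4* had at most 1 UMI.

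A gene was called between genotypes when it differed at least 1.5-fold, if 50 UMIs or more were present in 1 of the genotypes and the libraries of the genotypes did not overlap. Of 2342 genes, 63 were higher (2.69%) and 67 were lower (2.86%) in mutant cluster 9 cells. With at least 100 UMIs these counts were 18 and 10 of 1091 genes, and at 2-fold they were 9 and 2. The calls rested on single libraries to a large extent, since leaving out 1 library gave 52 to 149 higher and 31 to 124 lower genes. Without WT library A there were 149 higher and 34 lower genes, and without mutant library A there were 64 and 124.

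After *Erbb3*, the genes called with the lowest ratio of mutant over WT were *Rnf181*, *Grb7*, *Ahcyl1* and *Rnf114*. They reached 50 UMIs in WT alone, so that the choice favoured genes whose WT count was high, and their ratios are a description. *Grb7*, an adaptor that binds activated ERBB receptors, was at 80.4, 72.3, 41.7 and 39.5 CPM by library, with a log2 ratio of -0.92 (-1.64 to -0.23) against -0.03 (-0.10 to 0.04) in the other ML cells. *Rnf181*, a ubiquitin ligase, was at 73.3, 68.9, 30.6 and 29.6 CPM, with -1.25 (-2.07 to -0.47) against -0.17 (-0.25 to -0.08). *Ahcyl1*, which binds a calcium channel of the endoplasmic reticulum, was at 56.8, 89.6, 44.5 and 29.6 CPM, and *Rnf114*, a further ubiquitin ligase, at 87.5, 103, 55.6 and 46.1 CPM. Each of these rested on 50 to 67 UMIs in WT and 20 to 34 in the mutant. The difference between cluster 9 and the other ML cells was not tested.

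The genes called with the highest ratio were *H19*, *Krt6a*, *Plac8*, *Ctns* and *Idh2*, which in turn reached 50 UMIs in the mutant alone. *H19*, an imprinted noncoding RNA, had 0 UMIs in both WT libraries and 4 and 51 UMIs in the mutant libraries. Set against 3 UMIs over the WT cells, it was at least 19.7-fold higher, but 41 of its 55 UMIs came from 1 cell, and without that cell the bound was 5.03-fold. Without mutant library B only 4 UMIs were left (11.1 CPM), below the 15.2 to 18.7 CPM of *H19* in the other ML cells of a library. *Krt6a*, a keratin, was at 30.8, 41.3, 108 and 95.5 CPM by library, with a log2 ratio of 1.55 (0.87 to 2.27) beside 1.08 (1.02 to 1.14) in the other ML cells. *Idh2*, a mitochondrial isocitrate dehydrogenase, was at 40.2, 48.2, 111 and 65.9 CPM, with 1.06 (0.41 to 1.73) beside 0.05 (-0.01 to 0.10). *Plac8* was at 63.9, 51.7, 142 and 145 CPM, and *Ctns*, the cystine transporter of lysosomes, at 66.2, 55.1, 136 and 125 CPM.

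Few list genes were called between genotypes, beside the 2.69% and 2.86% over all genes. Lower in the mutant were 1 of 5 heat shock genes (*Hspb1*, log2 -0.59) and 1 of 4 fibrinogen and uroplakin genes (*Fgg*, -0.70), which is also the 1 of 10 genes named for cluster 11. Higher were 2 of 10 mitochondrial genes (*mt-Nd6*, 0.59, and *mt-Ti*, 0.59), 1 of 66 ribosomal protein genes (*Rpl11*, 0.94), 1 of 7 endoplasmic reticulum stress genes (*Pdia4*, 0.59) and 1 of 9 epithelial genes. The latter, the keratin gene *Krt8*, was at 755, 672, 1115 and 1146 CPM by library, with a log2 ratio of 0.65 (0.48 to 0.81) beside 0.57 (0.56 to 0.59) in the other ML cells. One of the annotated gene models of *Igsf5* reaches across *Pcp4* on the same strand of chromosome 16, so that their reads may be shared, and the libraries of WT cluster 9 disagreed on both. *Igsf5* was at 996 CPM (903 to 1096) in WT library A and 300 CPM (240 to 370) in WT library B, and at 1313 and 1228 CPM in the mutant libraries. In WT library A, 100 of its 421 UMIs came from 1 cell. *Pcp4*, a calmodulin binding protein, was at 1195, 362, 1566 and 1482 CPM in the same order. Both were called higher in the mutant, with a log2 ratio of 0.84 (0.68 to 1.00) for *Igsf5*, while the WT libraries differed from each other by more than the WT sum differed from the mutant sum. This was not particular to cluster 9, since both were higher in the mutant in each other ML cluster too. *Igsf5* was at 534 CPM in WT and 1272 CPM in the mutant in cluster 4, and at 459 and 578 CPM in cluster 5.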

How the data were processed

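Luminal cells of 1 pool of 3 mice per genotype were sequenced as 2 technical libraries each. The submitters' processing notes name CASAVA 1.8, bcl2fastq 2.20, GSNAP 2013-10-10 and GRCm38. The deposited signal values had been scaled by the authors with 1 factor per cell, and clusters had been made in Partek Flow (Seurat, resolution 0.6). Here UMIs were recovered from the lowest nonzero signal in a cell, taken as 1 UMI, and every other value was within 0.00989 of a whole multiple. These were summed to CPM per library, genotype or cluster. Intervals are exact Poisson (levels), conditional binomial (log2 ratios), Clopper-Pearson (shares) and log-normal (ratios of shares). No test was made and no p-value is given.

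Genes named were the 10 highest and the 10 lowest in cluster 9 by the WT ratio among those called, the 5 highest and 5 lowest between genotypes, and list members. Members and lists were chosen with earlier results of these data known. Scrublet (scanpy 1.11.5) called 6 cells (0.0185%) doublets, too few to be of use, and none was removed. Gene positions are from GENCODE M21, which matched 52489 genes. Scripts ran in Python 3.11.15 (seed 1) with scipy 1.17.1, numpy 2.4.6, matplotlib 3.10.9 and pandas 2.3.3.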

Additional observations from a re-analysis of the deposited data

Results flagged for a closer look

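Only tested genes named by the rank of their calls, and *Prlr*, *Pgr*, *Esr1*, *Malat1*, *Neat1* and *Erbb3*, were searched here. In 2 of them cluster 9 was below the other ML cells in both WT libraries and above them in both mutant libraries. These were *Ctns* and *Plac8*, named for their higher level in mutant cluster 9 cells, a choice that favours this pattern. Their log2 ratios were -0.22 in WT and 0.45 in the mutant for *Ctns*, and -0.86 and 0.02 for *Plac8*. The mutant ratio exceeded the WT ratio by 0.67 and 0.88. On the scale of the median gene the WT ratio of *Ctns* was -0.01. The difference between the genotypes was not tested.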

How the results depend on the processing

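The count of genes higher and lower in cluster 9 (70 and 215) depended on most settings. It was 176 and 46 with scaling by the median gene, 180 and 422 (of 5040 genes) with a minimum of 20 UMIs, 26 and 101 (of 1131) with a minimum of 100 UMIs, and 14 and 15 at a fold of 2. It was 7 and 53 against cells matched on UMIs, and 12 and 50 (of 1128) without the 10% of cells with the fewest UMIs, which left 352 cells of cluster 9. Asking for the rule against every single cluster gave 22 and 24. Of settings chosen after seeing the data, leaving out clusters 5 and 6 gave 59 and 137, and leaving *Malat1* out of the totals 124 and 97. Leaving out 1 library gave 27 to 36 higher and 81 to 112 lower genes among the 1002 to 1496 that then reached the minimum, against 2361 with all libraries. Between genotypes (63 higher, 67 lower), a minimum of 20 UMIs gave 347 and 334, a minimum of 100 UMIs 18 and 10, a fold of 2 gave 9 and 2, and leaving out the shallowest 10% of cells 39 and 24. Leaving out 1 library gave 52 to 149 and 31 to 124. The depth ratio of 0.381 was 0.459 for genes per cell. The highest correlation, with cluster 8, was 0.939 with a minimum of 20 UMIs and 0.902 to 0.918 with 1 library left out. The cause was not tested. Which direction held more calls changed with the scale in the comparison of clusters, and with the library left out in that of genotypes (149 higher and 34 lower without WT library A, 64 and 124 without mutant library A). No paired analysis was possible because the table names the libraries but not their replicate numbers, and the results come from no test.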
